A study of Homo sapiens with 2 samples.

Results

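The genes described here encode the SR proteins and the heterogeneous nuclear ribonucleoproteins (hnRNPs), which are the main families of splicing regulators that bind pre-mRNA. They were chosen as the protein-coding rows of the deposited gene table whose symbol starts with SRSF, SRRM, TRA2 or HNRNP, which gave 46 of 58302 genes. Of these, 19 are SR and SR-related genes and 27 are HNRNP genes. A further 129 rows carry such a symbol but another gene type, mostly as pseudogenes, and they are not members. The libraries hold polyadenylated RNA of Tu212, a cell line of epithelial origin that serves as a head and neck squamous carcinoma model. One group received the plasmid pEZ-PRMT5, which overexpresses the arginine methyltransferase PRMT5, and the control group received the empty pEZ-vector, each for 48 h, with 1 library per group. A single library per group allows no replicate check and no test, so every difference below describes these libraries and not the condition.

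SR proteins carry RNA recognition motifs and a domain rich in arginine and serine, and when bound to exons they mostly promote inclusion of the exon. The hnRNPs coat nascent transcripts and often act in the opposite sense, although both families also take part in mRNA export, stability and translation. Several of them, hnRNP A1 among them, have regions rich in arginine and glycine that PRMT enzymes methylate. Many SR and hnRNP genes limit their own mRNA by splicing in exons that lead to nonsense-mediated decay.

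The table assigned 19908258 reads to genes in the PRMT5 overexpression library and 14119997 in the vector control library. PRMT5 itself had 5770 reads in the PRMT5 overexpression library and 2068 in the vector control library, or 293 and 145 CPM, which are counts scaled to library size. Its log2 ratio, PRMT5 overexpression over vector control, was 1.01, with a 95% counting interval of 0.94 to 1.09. Gene-level counts do not separate plasmid transcripts from those of the chromosomal gene, nor one splice form from another. Intervals throughout are exact binomial intervals and cover counting error only. All 10 epithelial and squamous markers were detected, at a summed 11638 CPM in the PRMT5 overexpression library and 10481 CPM in the vector control library. Of the 10, 9 were above 0, with a median log2 ratio of 0.15. None was 1.5-fold or more higher or lower, and 2 were 1.2-fold or more higher, against 17.2% of all genes above 10 reads. Fibroblast markers summed to 82.2 CPM with PRMT5 overexpression and 99.2 CPM in the vector control, of which COL1A1 made up 79.0 and 92.6 CPM. Of the 6 of 8 fibroblast markers above 10 reads, 5 were below 0, with a median log2 ratio of -1.21. Of the 6, 3 were 1.5-fold or more lower, against 5.33% of all genes above 10 reads. COL1A1 was not among these 3, with a log2 ratio of -0.23 (-0.34 to -0.12). The other markers made up little of the sum, so the median and the calls rest on genes with few reads. Leukocyte markers summed to 16.9 and 21.6 CPM in the same order, with 2 of 5 above 10 reads. CD68 made up 16.2 and 20.1 CPM of this, and its log2 ratio was -0.30 alone and 0.32 when summed with its exon-sharing genes. Endothelial markers summed to 4.46 CPM with PRMT5 overexpression and 5.96 CPM in the vector control, with CDH5 and KDR at 0 reads. The part of these differences in the values below was not tested, and in bulk RNA fewer cells of a type cannot be told apart from less RNA per cell.

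Both families were expressed at nearly the same level in the PRMT5 overexpression and the vector control library, and a few members departed from this. Of the 46 members, 40 had at least 10 reads in at least 1 library, 17 of them SR and SR-related and 23 HNRNP. HNRNPCL1, HNRNPCL2, HNRNPCL3, HNRNPCL4 and SRRM4, a neural splicing regulator, had 0 reads in both libraries, which allows up to 0.152 CPM with PRMT5 overexpression and 0.210 CPM in the vector control on a floor of 3 reads. SRRM5 had 5 reads with PRMT5 overexpression and 4 in the vector control. SRSF2 and HNRNPUL2-BSCL2 were 1.5-fold or more higher with PRMT5 overexpression, against 7.06% of the 17777 genes above 10 reads. No member was 1.5-fold or more lower, against 5.33% of those genes. At 1.2-fold or more, HNRNPA1P48 and HNRNPH2 joined them to make 4 higher members, against 17.2% of genes, and HNRNPU was the 1 lower member, against 15.4%. The share of all members called was thus close to the background or under it.

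Since most members are abundant, the closer background is the 4118 genes with a mean of 1000 reads or more, which include 35 members. Among those 35, SRSF2 alone was 1.5-fold or more higher, against 1.46% of such genes, and 0 were 1.5-fold or more lower, against 1.17%. At 1.2-fold or more, 3 were higher, against 6.9%, and 1 was lower, against 4.91%. The counting interval lay wholly above 0 for 15 of the 35, against 27.5% of such genes, and wholly below 0 for 10, against 22.5%.

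**Figure D1:**
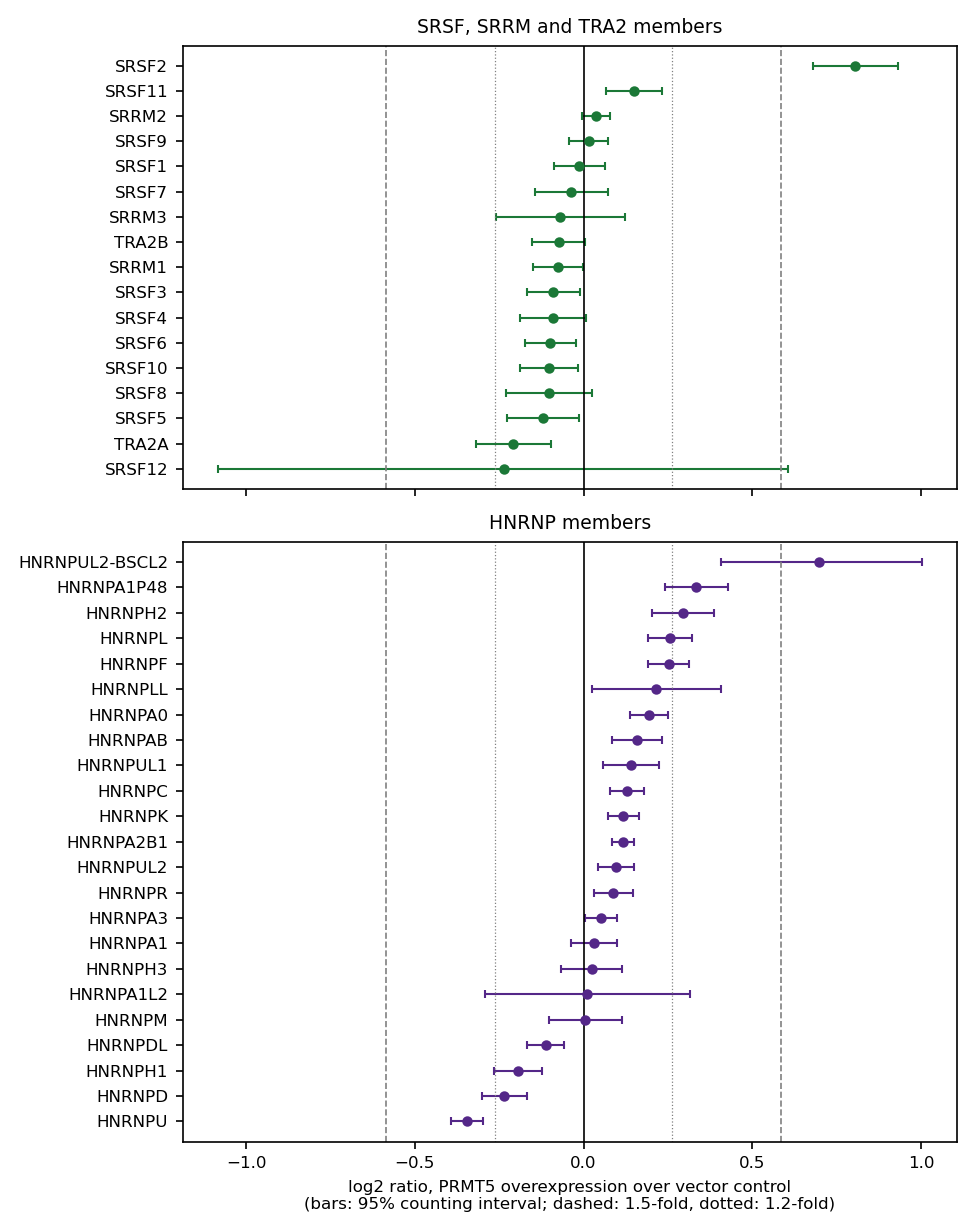
Log2 ratio of PRMT5 overexpression over vector control for the 40 members above 10 reads, with SR and SR-related members in the upper panel and HNRNP members in the lower one. Points are the ratio of 1 library to 1 library, bars are 95% counting intervals, and lines mark 1.2-fold and 1.5-fold. SRSF2 at 0.81 and HNRNPUL2-BSCL2 at 0.70 stand to the right of the 1.5-fold line, and HNRNPU at -0.35 is the lowest member.

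The families leaned to opposite sides of 0 by small amounts. Among the SR and SR-related members, 4 were above 0 and 13 below, with a median log2 ratio of -0.08 and an interquartile range of -0.10 to -0.01. Among the HNRNP members, 19 were above 0 and 4 below, with a median of 0.12 and an interquartile range of 0.02 to 0.21. Over the 17777 genes above 10 reads, 8963 were above 0 and 8814 below. Over the genes with a mean of 1000 reads or more, 2179 were above 0 and 1939 below. The median over all genes above 10 reads was 0.00, with an interquartile range of -0.15 to 0.16, and that over genes with a mean of 1000 reads or more was 0.01, with a range of -0.08 to 0.10. Both family medians thus lay within the interquartile range of all genes above 10 reads, and the HNRNP median just above that of the abundant genes. Summed over members, SR and SR-related genes had 48626 reads with PRMT5 overexpression and 35353 in the vector control, or 2467 and 2479 CPM, a log2 ratio of -0.01 (interval -0.03 to 0.01). HNRNP genes had 117201 reads with PRMT5 overexpression and 81231 in the vector control, or 5945 and 5696 CPM, a log2 ratio of 0.06 (0.05 to 0.07). In all, the 40 members took 0.833% of the reads with PRMT5 overexpression and 0.826% in the vector control.

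**Figure D2:**
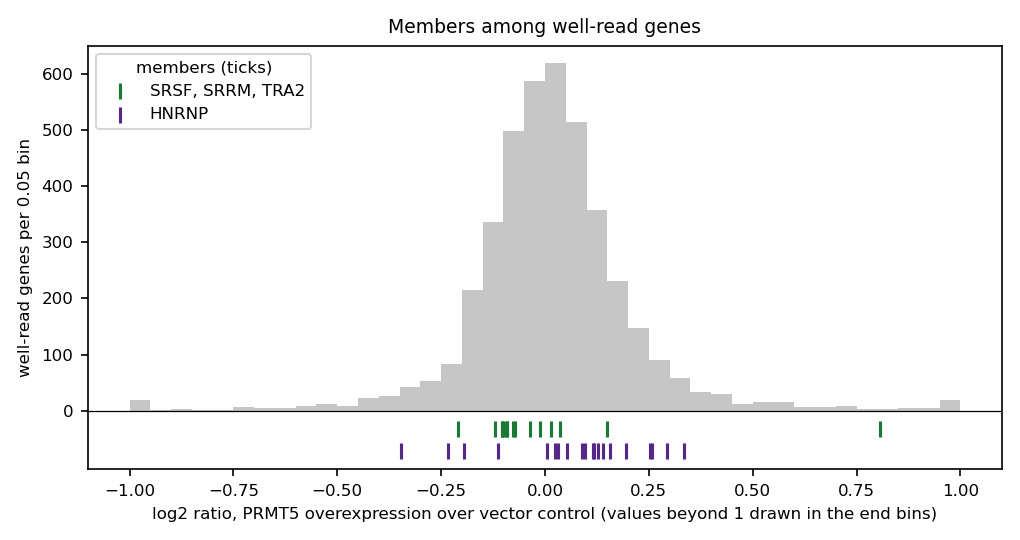
Distribution of the log2 ratio, PRMT5 overexpression over vector control, over the 4118 genes with a mean of 1000 reads or more (grey bars), with the 35 members of that depth as ticks below, SR and SR-related in the upper row and HNRNP in the lower row. Genes beyond 1 in size are drawn in the end bins. Most SR ticks lie between -0.12 and 0.04, with SRSF2 at 0.81, SRSF11 at 0.15 and TRA2A at -0.21 outside, and the HNRNP ticks spread between -0.35 and 0.33.

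SRSF2 differed most among the members. This gene, also known as SC35, encodes an SR protein that binds exonic enhancers in both C-rich and G-rich contexts. It had 1772 reads with PRMT5 overexpression and 733 in the vector control, or 89.9 and 51.4 CPM, so the PRMT5 overexpression library was the higher one. The log2 ratio was 0.81 (interval 0.68 to 0.93), a 1.75-fold difference. SRSF2 (ENSG00000161547) lies on the minus strand of chromosome 17, at chr17:76734115-76737374 in GRCh38, and its exons share 1106 bases with MFSD11, a gene on the opposite strand. By the positions in the table, 3 genes overlap the SRSF2 locus, of which MFSD11 alone had 10 reads or more. The sources used here do not give whether reads were counted by strand, so reads of overlapping genes cannot be told apart. MFSD11, which encodes a transporter-like membrane protein, had 603 reads with PRMT5 overexpression and 363 in the vector control, a log2 ratio of 0.26 (0.07 to 0.46). Summed over both genes the reads were 2375 with PRMT5 overexpression and 1096 in the vector control, and the log2 ratio was 0.65 (0.54 to 0.75). The sum was above 1.5-fold. SRSF2 held 74.6% of those reads with PRMT5 overexpression and 66.9% in the vector control, so the sum mostly follows SRSF2. It does not separate the reads of the overlapping genes. SRSF8, which arose as an expressed retrocopy of SRSF2, had 1162 reads with PRMT5 overexpression and 903 in the vector control and a log2 ratio of -0.10 (-0.23 to 0.02). The SRSF2 value exceeded that of SRSF8 by 0.91 on the log2 scale, with a counting interval of 0.73 to 1.09.

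The other SRSF genes lay between -0.12 and 0.15, apart from the barely read SRSF12. SRSF1, the founding member of the family, had 3414 reads with PRMT5 overexpression and 2492 in the vector control, or 173 and 175 CPM, and a log2 ratio of -0.01. SRSF9 was at 0.01 and SRSF7, which also acts as an adaptor for mRNA export, at -0.04. SRSF3, the smallest SR protein and another export adaptor, was at -0.09, with 152 CPM with PRMT5 overexpression and 162 CPM in the vector control. SRSF4, SRSF5 and SRSF6, which are close relatives of each other, were at -0.09, -0.12 and -0.10. SRSF10, which represses splicing when dephosphorylated, was at -0.10. The counting intervals of SRSF3, SRSF5, SRSF6 and SRSF10 lay just below 0, and those of SRSF1, SRSF4, SRSF7 and SRSF9 included it. SRSF11 was the other SRSF gene whose interval lay above 0, at 0.15 (0.07 to 0.23), with 3015 reads with PRMT5 overexpression and 1966 in the vector control. SRSF12 was barely read, with 28 reads with PRMT5 overexpression and 24 in the vector control, and its interval of -1.08 to 0.61 spans 0 widely.

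The SR-related members lay between -0.21 and 0.04, with TRA2A the lowest. SRRM2, a large scaffold protein of nuclear speckles, was the most read of the 17, with 11151 reads with PRMT5 overexpression and 7870 in the vector control, or 566 and 552 CPM, and a log2 ratio of 0.04. SRRM1, a splicing coactivator that works with SRRM2, was at -0.08, and SRRM3 at -0.07 with an interval of -0.26 to 0.12. TRA2A and TRA2B are the human relatives of the Drosophila sex-determination factor transformer-2. TRA2A had 1425 reads with PRMT5 overexpression and 1191 in the vector control, or 72.3 and 83.5 CPM, and a log2 ratio of -0.21 (-0.32 to -0.10). TRA2B was at -0.07 (-0.15 to 0.01). Together the TRA2 genes summed to a log2 ratio of -0.12 (-0.18 to -0.05).

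**Figure D3:**
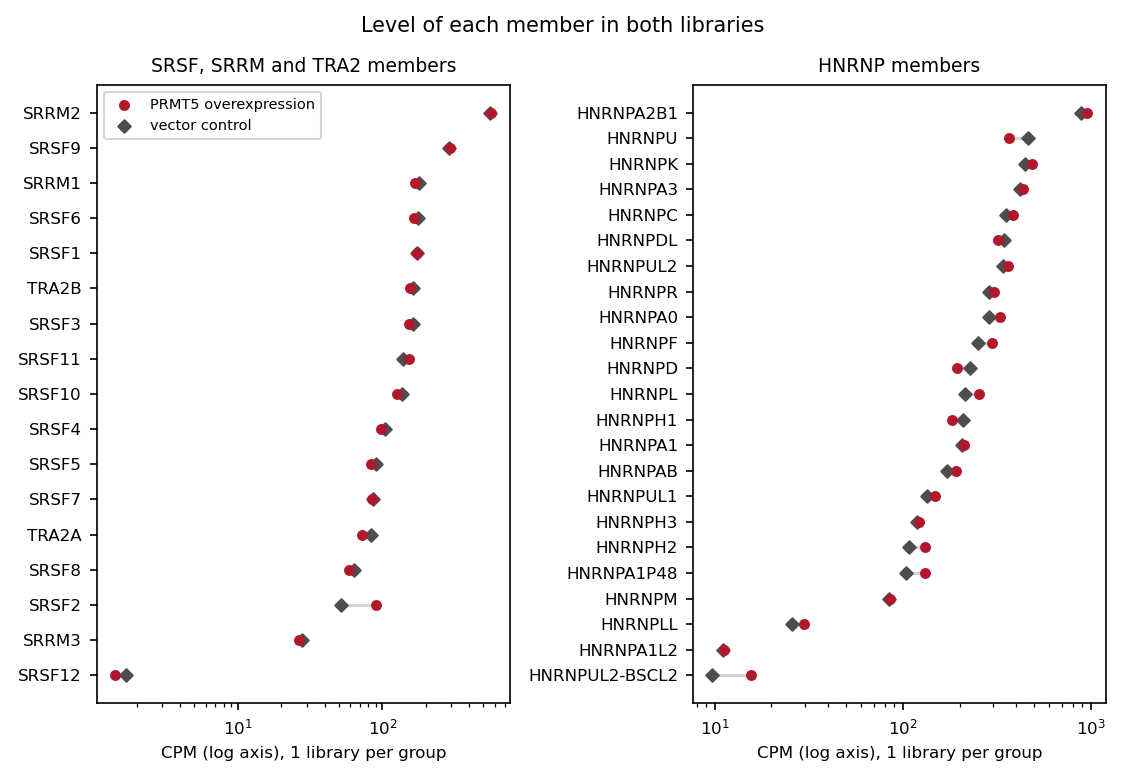
CPM of each of the 40 members in the PRMT5 overexpression library (red circles) and the vector control library (grey diamonds) on a log axis, with SR and SR-related members on the left and HNRNP members on the right. Each point is 1 library. The paired points nearly coincide for most members, and SRSF2 shows the widest gap of the left panel, at 89.9 CPM with PRMT5 overexpression and 51.4 CPM in the vector control.

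HNRNPA1, which encodes the hnRNP best known for repressing splice sites and for shuttling between nucleus and cytoplasm, shares its sequence with retrocopies on other chromosomes. The HNRNPA1 coding sequence gave 117 overlapping windows of 90 bases that lie within a single exon. Of these windows, 72 occur unchanged in HNRNPA1P7, 63 in HNRNPA1P10, 36 in HNRNPA1P48 and 21 in HNRNPA1L2. The file calls HNRNPA1P48 and HNRNPA1L2 protein-coding, so they are members, and HNRNPA1P7 and HNRNPA1P10 processed pseudogenes.

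HNRNPA1 had 4169 reads with PRMT5 overexpression and 2950 in the vector control, or 211 and 207 CPM, a log2 ratio of 0.03 (-0.04 to 0.10). HNRNPA1P7 held more reads than HNRNPA1 itself, with 6135 reads with PRMT5 overexpression and 3750 in the vector control and a log2 ratio of 0.24 (0.18 to 0.30). HNRNPA1P10 went the other way, with 1420 reads with PRMT5 overexpression and 1303 in the vector control and a log2 ratio of -0.34 (-0.45 to -0.23). The share of the reads on each of these near-identical loci thus differed between the libraries. HNRNPA1P48 (ENSG00000224578, chr16:51645756-51647132) had 2582 reads with PRMT5 overexpression and 1481 in the vector control, or 131 and 104 CPM. Its log2 ratio was 0.33 (0.24 to 0.43), a 1.26-fold difference. HNRNPA1L2 had 220 reads with PRMT5 overexpression and 158 in the vector control, a log2 ratio of 0.01. Summed over HNRNPA1 and its 7 copies the reads were 15103 with PRMT5 overexpression and 9948 in the vector control, or 766 and 698 CPM, a log2 ratio of 0.14 (0.10 to 0.17). HNRNPA1 held 27.6% of that sum with PRMT5 overexpression and 29.7% in the vector control. Among the copies, AC021224.1 (chr18:32412182-32413236) covers the whole of HNRNPA1P7 (chr18:32412214-32413176), so these are not separate loci. The sources used here do not give how reads that match several loci were placed, so the single values of these loci are uncertain. The sum is uncertain too, since such reads may have been counted at several loci or left out.

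**Figure D4:**
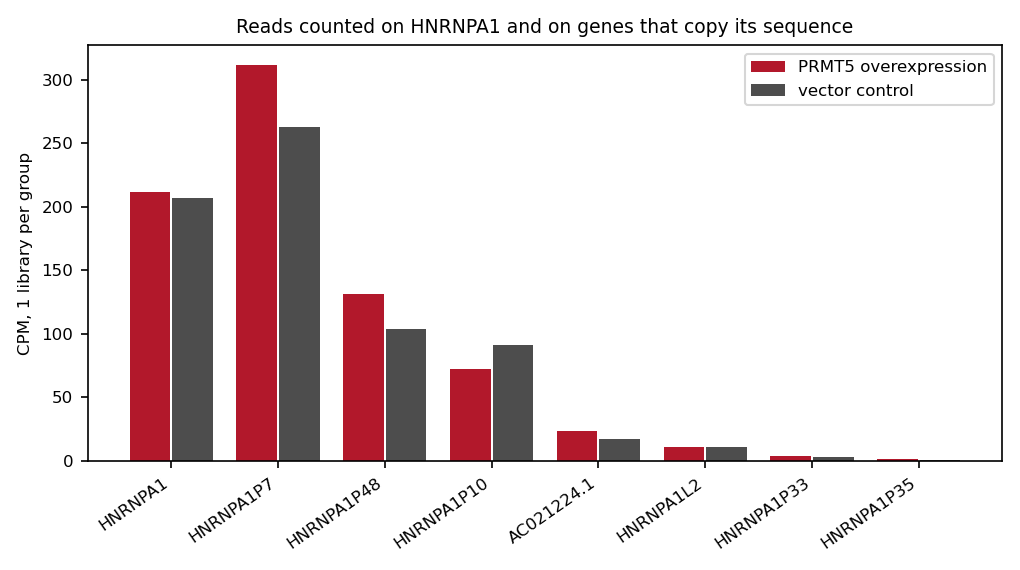
CPM of HNRNPA1 and of 7 genes that copy its sequence in the PRMT5 overexpression library (red bars) and the vector control library (grey bars), 1 library per group. HNRNPA1P7 is above HNRNPA1 in both libraries, and AC021224.1 covers the same place as HNRNPA1P7. HNRNPA1P10 is the 1 gene of the 8 that is lower with PRMT5 overexpression, with 72.0 CPM there and 91.4 CPM in the vector control.

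HNRNPA3, a relative of HNRNPA1, also has copies on other chromosomes. A stretch of its coding sequence is shown with the matching stretch of 2 copies, to let the likeness be seen. It lies in exon 8 at chr2:177217707-177217796 on the plus strand, with HNRNPA3P6 at chr3:75215318-75215407 on the plus strand and HNRNPA3P5 at chr13:65788160-65788249 on the minus strand. Sequences are from GENCODE release 29 transcripts on GRCh38, 5′ to 3′, and capitals mark bases that differ from HNRNPA3.
HNRNPA3: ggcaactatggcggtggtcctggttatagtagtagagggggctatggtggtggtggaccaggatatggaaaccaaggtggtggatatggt
HNRNPA3P6: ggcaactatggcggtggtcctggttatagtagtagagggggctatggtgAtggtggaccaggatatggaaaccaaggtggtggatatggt
HNRNPA3P5: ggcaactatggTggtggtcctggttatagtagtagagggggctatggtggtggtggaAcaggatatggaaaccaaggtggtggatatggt

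Of 103 overlapping windows of 90 bases within single exons of the HNRNPA3 coding sequence, 77 occur unchanged in HNRNPA3P6 and 0 in HNRNPA3P5. HNRNPA3 had 8585 reads with PRMT5 overexpression and 5988 in the vector control, or 436 and 420 CPM, a log2 ratio of 0.05 (0.00 to 0.10). HNRNPA3P6 had 5830 reads with PRMT5 overexpression and 3793 in the vector control, a log2 ratio of 0.15, and HNRNPA3P5 had 586 and 253 reads in the same order, a log2 ratio of 0.74 (0.53 to 0.96). Summed over HNRNPA3 and its 7 copies the log2 ratio was 0.12 (0.08 to 0.15), and HNRNPA3 held 54.1% of the sum with PRMT5 overexpression and 56.5% in the vector control. Among these copies, the microRNA gene MIR4444-2 (chr3:75214476-75214549) lies next to HNRNPA3P6 (chr3:75214631-75215636).

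The remaining A/B genes have no such copy above 10 reads. HNRNPA2B1, whose proteins bind nuclear RNA and sort certain RNAs for transport, was the most read member of all. It had 18876 reads with PRMT5 overexpression and 12596 in the vector control, or 958 and 883 CPM, a log2 ratio of 0.12 (0.08 to 0.15). HNRNPA0 was at 0.19 (0.14 to 0.25) and HNRNPAB at 0.16 (0.08 to 0.23). HNRNPD, also known as AUF1, binds AU-rich elements and promotes decay of the mRNAs that carry them. It had 3816 reads with PRMT5 overexpression and 3248 in the vector control, or 194 and 228 CPM, a log2 ratio of -0.23 (-0.30 to -0.17). Its paralogue HNRNPDL was at -0.11 (-0.17 to -0.06), so both genes of this pair lay below 0 and HNRNPDL was the higher by 0.12 (0.04 to 0.21). Over the 9 genes of the A/B group, 7 were above 0 and 2 below, with a median of 0.05 and a summed log2 ratio of 0.07 (0.05 to 0.08).

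The F/H genes, which encode proteins that bind runs of G, differed among themselves. HNRNPH2 (chrX:101408295-101414133, plus strand) had 2591 reads with PRMT5 overexpression and 1528 in the vector control, or 131 and 107 CPM, a log2 ratio of 0.29 (0.20 to 0.39) and a 1.23-fold difference. HNRNPF had 5871 reads with PRMT5 overexpression and 3566 in the vector control, or 298 and 250 CPM, a log2 ratio of 0.25 (0.19 to 0.31). HNRNPH1, whose protein is the closest relative of hnRNP H2, had 3596 reads with PRMT5 overexpression and 2978 in the vector control, or 182 and 209 CPM, a log2 ratio of -0.20 (-0.27 to -0.12). HNRNPH3 was at 0.02 (-0.07 to 0.11). The HNRNPH2 value exceeded that of HNRNPH1 by 0.49 (0.37 to 0.60), and HNRNPF exceeded it by 0.45 (0.35 to 0.54). The F/H genes summed to 733 CPM with PRMT5 overexpression and 685 CPM in the vector control, a log2 ratio of 0.10 (0.06 to 0.13). HNRNPH2 shares 362 exon bases with the read-through gene RPL36A-HNRNPH2 on the same strand, and summed with it was at 0.27, just above 1.2-fold.

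HNRNPU was the lowest HNRNP member. It encodes a large nuclear protein, also called SAF-A, that binds RNA and chromatin. HNRNPU (ENSG00000153187) had 7191 reads with PRMT5 overexpression and 6610 in the vector control, or 365 and 464 CPM, and a log2 ratio of -0.35 (-0.39 to -0.30), which is 1.27-fold lower. The gene lies at chr1:244840638-244864560 on the minus strand and shares 3502 exon bases with COX20, which is on the opposite strand and encodes an assembly factor of cytochrome c oxidase. COX20 had 865 reads with PRMT5 overexpression and 620 in the vector control, a log2 ratio of 0.01, and the sum of both genes was at -0.31 (-0.36 to -0.27). HNRNPU held 89.3% of the summed reads with PRMT5 overexpression and 91.4% in the vector control, so the sum mostly follows HNRNPU. The relatives of HNRNPU were on the other side of 0, with HNRNPUL1 at 0.14 (0.06 to 0.22) and HNRNPUL2 at 0.10 (0.04 to 0.15). HNRNPUL2 exceeded HNRNPU by 0.44 (0.37 to 0.51) and HNRNPUL1 exceeded it by 0.49 (0.39 to 0.58).

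HNRNPUL2-BSCL2 is a read-through gene that runs from HNRNPUL2 into the neighbouring BSCL2, the gene of the lipid droplet protein seipin, and its annotated transcript is of the nonsense-mediated decay class. It lies at chr11:62690275-62727384 on the minus strand. Of its 4001 exon bases it shares 2391 with HNRNPUL2 and 1610 with BSCL2, all on the same strand, so none is its own. It had 308 reads with PRMT5 overexpression and 137 in the vector control, or 15.6 and 9.61 CPM, a log2 ratio of 0.70 (0.41 to 1.00) and a 1.62-fold difference. BSCL2 had 341 reads with PRMT5 overexpression and 378 in the vector control, a log2 ratio of -0.61 (-0.83 to -0.40). Summed over the 3 genes the log2 ratio was 0.08 (0.03 to 0.13), and the read-through gene held 3.94% of those reads with PRMT5 overexpression and 2.55% in the vector control. The sum is thus almost wholly HNRNPUL2 and says little of the read-through gene. As all its exon bases are shared, its reads cannot be told apart from those of its neighbours by exon position.

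The other HNRNP members lay between 0.00 and 0.26. HNRNPL, which binds CA-rich elements, had 5009 reads with PRMT5 overexpression and 3033 in the vector control, or 254 and 213 CPM, a log2 ratio of 0.26 (0.19 to 0.32). Its paralogue HNRNPLL, known for its part in CD45 splicing in T cells, was at 0.22 (0.02 to 0.41) from fewer reads, 586 with PRMT5 overexpression and 365 in the vector control. HNRNPK, a KH-domain protein that binds C-rich sequences, was at 0.12 (0.07 to 0.16). HNRNPC, which binds U-rich tracts and measures transcript length, was at 0.13 (0.08 to 0.18), and at 0.15 when summed with its copy HNRNPCP2. HNRNPR was at 0.09 (0.03 to 0.15) and HNRNPM at 0.00 (-0.10 to 0.11).

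Overlap with other genes and copies elsewhere moved 5 members beyond their counting intervals. Of the 40 members, 14 share exon bases with another gene above 10 reads, 11 have such a copy elsewhere in the genome, and 2 of these have both. The remaining 17 have neither. Among the 14, the sum moved SRSF2 and HNRNPUL2-BSCL2 out of the counting interval of the gene alone. Other partners with many reads were CBX3, which encodes a heterochromatin protein, for HNRNPA2B1 (sum 0.10), GATC for SRSF9 (sum 0.02) and ELOB for SRRM2 (sum 0.07 with SRRM2-AS1). TGFB1, the gene of a growth factor, was at 0.35 alone and brought HNRNPUL1 to 0.19. HNRNPA1L2 and HNRNPH3 passed to the other side of 0 when summed, at -0.11 (-0.38 to 0.16) and -0.02 (-0.10 to 0.07), with intervals that include 0. Among the 11 members with copies, the sum moved HNRNPA1, HNRNPA3 and HNRNPA1P48 out of the interval of the gene alone. HNRNPA1P48 was at 0.18 (0.13 to 0.22) when summed with its copies, which is under 1.2-fold. That sum leaves out HNRNPA1, of which 19.9% of the stretches occur in HNRNPA1P48, under the 20% set for a copy. The sum that includes HNRNPA1 was at 0.14. None of the 17 members with neither overlap nor copies was 1.2-fold or more higher or lower. Of the 4118 abundant genes, 6.9% were 1.2-fold or more higher and 4.91% lower, so few of 17 genes would be called at such shares. HNRNPF, among the 17, was just under the line at 1.19-fold higher with PRMT5 overexpression. Whether the calls go with overlap or copies was not tested.

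**Figure D5:**
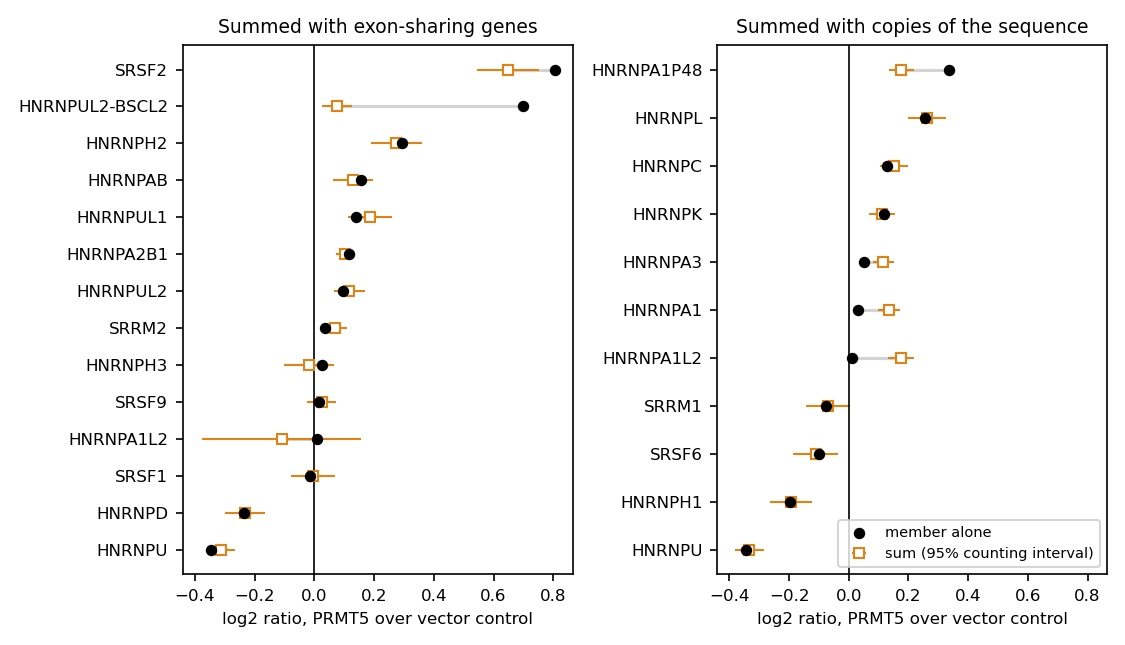
Log2 ratio of PRMT5 overexpression over vector control for members counted alone (black circles) and summed with exon-sharing genes (left) or with copies of their sequence (right), drawn as orange squares with 95% counting intervals. HNRNPUL2-BSCL2 moves the most, with 0.08 summed and 0.70 alone. SRSF2 is at 0.65 and HNRNPU at -0.31 when summed with exon-sharing genes, and each holds most reads of its sum.

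Per kilobase of merged exon, the members with the highest levels were hnRNPs. HNRNPA2B1 was at 103 CPM per kilobase with PRMT5 overexpression and 95.3 in the vector control. HNRNPK was at 94.7 and 87.3 on that scale, HNRNPAB at 88.9 and 79.7, and HNRNPF at 91.6 and 76.9, in the same order of libraries. HNRNPF stood above HNRNPAB with PRMT5 overexpression and below it in the vector control, and no replicate spread is at hand to order such neighbours. The highest SR gene was SRSF9, at 78.3 with PRMT5 overexpression and 77.5 in the vector control, followed by SRSF1 at 51.9 and 52.3. The order depends on the length used: per kilobase of the transcript with the longest coding sequence, HNRNPA2B1 was again first, followed by SRSF9, HNRNPC and HNRNPA3.

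Among the HNRNP members, 9 have no transcript annotated as subject to nonsense-mediated decay in GENCODE release 29, and all 9 were above 0, with a median log2 ratio of 0.16. Of these, HNRNPA1L2 and HNRNPH3 have intervals that include 0, and both were below 0 with total counts, with deposited FPKM and when summed with exon-sharing genes. The 14 with at least 1 such transcript had 10 above 0 and 4 below, with a median of 0.10. Of all 23 HNRNP members 19 were above 0, against 8963 of the 17777 genes above 10 reads, which were not split by decay transcripts. HNRNPU has 9 such transcripts, HNRNPH1 and HNRNPDL 4 each and HNRNPD 2, and these 4 are the HNRNP members below 0. HNRNPUL1, with 3 such transcripts, was above 0, as were HNRNPA1, HNRNPC, HNRNPK and the other members with 1. Of the 16 SR and SR-related members with such a transcript, 4 were above 0 and 12 below, and the 1 without was below 0. Across the 23 HNRNP members the Spearman correlation of the log2 ratio with the number of such transcripts was -0.46, and across the 17 SR and SR-related members it was 0.30. With the number of retained intron transcripts it was -0.31 and 0.04 in the same order. HNRNP members above 10 reads have from 1 annotated transcript (HNRNPA0) to 50 (HNRNPH1), and the part of this in the correlations was not tested. These correlations are descriptions over genes of the same pair of libraries.

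Genes that act on or with these proteins were set beside them. Over all genes above 10 reads, 7.06% were 1.5-fold or more higher and 5.33% lower. No list below had more than 1 gene called either way, so the counts are not results about the lists. Of 9 SR protein kinases above 10 reads, 0 were 1.5-fold or more higher and 1 was lower, with a median of -0.00. The lower one was DYRK1A, with 275 reads with PRMT5 overexpression and 350 in the vector control and a log2 ratio of -0.81 (-1.05 to -0.58). CLK2, a kinase that phosphorylates SR proteins in the nucleus, was at 0.24, CLK4 at -0.24 and PRPF4B at -0.18. Of 29 SR-related genes with other symbols, 1 was higher and 1 lower, with a median of -0.04. The higher one was SON, the gene of a nuclear speckle scaffold, with 4618 reads with PRMT5 overexpression and 1597 in the vector control, or 234 and 112 CPM, a log2 ratio of 1.06 (0.98 to 1.15). SON shares exon bases with DONSON and GART, and summed with them it was at 0.54. The lower one was RSRP1, at -0.84 alone and -0.19 when summed with TMEM50A. PPIG was at -0.35 and RBM39, which is related to U2AF2, at -0.31.

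Of 24 hnRNP genes with other symbols, 0 were 1.5-fold or more higher and 1 was lower, with a median of -0.01. PTBP1, the polypyrimidine tract binding protein also called hnRNP I, was the lower one. It had 3399 reads with PRMT5 overexpression and 5159 in the vector control, or 172 and 362 CPM, a log2 ratio of -1.07 (-1.13 to -1.01). PTBP1 shares no exon bases with a counted gene. Its paralogue PTBP2, the neural form, had 217 reads with PRMT5 overexpression and 125 in the vector control, a log2 ratio of 0.33 (0.00 to 0.66), while PTBP3 was at -0.30 (-0.37 to -0.23). CIRBP, a cold-inducible RNA-binding protein, was at 0.43 (0.33 to 0.54). The PTBP1 difference was larger than that of any of the 40 members.

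None of the 9 genes of transport factors was past 1.5-fold, with a median of 0.09. TNPO1, the importer that binds the M9 signal of hnRNP A1, was at 0.14 (0.05 to 0.22), the export factor NXF1 at 0.25, its partner ALYREF at 0.23 (0.13 when summed with ANAPC11) and NXT1 at -0.13. Of 15 nonsense-mediated decay factors, 0 were higher and 1 was lower by 1.5-fold or more, with a median of -0.03. That gene was UPF3A, with 442 reads with PRMT5 overexpression and 549 in the vector control, a log2 ratio of -0.78 (-0.96 to -0.60). MAGOH, a core part of the exon junction complex, was at 0.30 (0.14 to 0.46), which does not stand for the complex as a whole. Over the 15 factors, 7 were above 0 and 8 below. Of 12 arginine methyltransferases and PRMT5 partners above 10 reads, PRMT5 was the 1 gene past 1.5-fold, with a median of 0.08. WDR77, the subunit that PRMT5 needs for activity, was at 0.19 (0.08 to 0.31) alone and 0.13 when summed with ATP5PB and AL390195.1, PRMT9 at 0.23 and RIOK1, an adaptor of PRMT5, at -0.19.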

How the data were processed

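Gene-level values of Tu212 cells were used, with 1 library for PRMT5 overexpression and 1 for the vector control. The authors' table gives each gene a raw count and an FPKM per library, per the file headers. CASAVA 1.8, HISAT2 2.1.0, StringTie 1.3.4b and edgeR are named with GRCh38, per the submitters' processing notes, with no roles, and the counter, its strand setting and its treatment of reads that match several loci are not given in the sources used here. The length behind the deposited FPKM was the sum of distinct exon lengths in 92.2% of 11471 genes (within 1%), at the median 1.55-fold the merged exon length. FPKM was therefore not compared between genes, and reads per kilobase of merged exon were computed from the counts.

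Rows of 1 symbol were summed. Counts were scaled by TMM (edgeR 4.0.16, R 4.3.3; factors 0.990 for PRMT5 overexpression and 1.01 for vector control, from genes past a floor of 10 reads in either library) and given as CPM, or on the log2 scale after adding a prior count of 1. PRMT5 overexpression was sequenced 1.41-fold deeper. Intervals are Clopper-Pearson at 95%, so the precision is that of the reads behind each value. No test was made, and the procedure was tested on simulated data.

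Exon-sharing genes were found in GENCODE release 29 on either strand, where 42 of 46 members had the same coordinates. A copy is another gene of which 20% or more of the 31-base stretches occur in the member's transcripts. Sequence windows of 90 bases started at each codon, and those that cross an exon junction were left out. Such windows overlap, so their counts are not shares of the coding sequence. The windows shown were picked by a script at the median number of mismatches among windows with at least 1 in each copy. Members, gene lists and their naming rule (up to 4 genes per list by size of the log2 ratio, above a mean of 100 reads) were chosen with earlier results of these data known. The copy sums, paralogue pairs and counts of decay transcripts were chosen after their data were seen. Alternatives covered the scaling (DESeq2 1.42.0 size factors, total counts), the prior count (0.1 and 5), deposited FPKM with a pseudocount of 1, floors of 0 and 50 reads and the highest row per symbol. Protein features of the members were not analysed here. Certain genes and sequences that the naming rule covers are left out of the report. No per-sample column was left unused. Python 3.11.15 was used with scipy 1.17.1, pandas 2.3.3, numpy 2.4.6 and matplotlib 3.10.9.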

Additional observations from a re-analysis of the deposited data

How the results depend on the processing

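Other prior counts, DESeq2 scaling, another or no floor and the highest row per symbol gave the same member counts, SR medians of -0.08 to -0.07 and HNRNP medians of 0.09 to 0.12. The 2 members 1.5-fold or more higher became 1 with deposited FPKM and 0 at 2-fold, and 0 among members with no exon sharing and among those with neither copies nor exon sharing. The 4 members 1.2-fold or more higher became 3 with FPKM, where HNRNPH2 was at 0.26, 1 without exon-sharing members and 0 without copies as well. The 1 member 1.2-fold or more lower became 3 with total counts, 0 without exon-sharing members and 0 without copies as well. The subsets leave out the called members themselves, since SRSF2, HNRNPUL2-BSCL2, HNRNPH2 and HNRNPU share exon bases and HNRNPA1P48 has copies. The 2-fold threshold is stricter by construction. The summed log2 ratio of SR and SR-related members was -0.0357 with total counts, -0.0510 with FPKM and -0.0306 without SRSF2. That of HNRNP members was 0.0333 with total counts, 0.104 with FPKM and 0.0758 with their copies, and PRMT5 was 0.931 with FPKM. The length behind the FPKM was the same in both libraries in 100% of 11471 genes (within 1%). For a single gene, FPKM thus differs from total counts by the pseudocount of 1. HNRNPUL2-BSCL2 was at 0.67 with total counts and at 0.51 with FPKM. For the FPKM sums over members the cause was not tested. Of 225 recomputed member values, 219 stayed within the counting interval and 10 had the other sign, all with intervals that include 0. Total counts shifted all values by -0.03, which put HNRNPA1L2, HNRNPH3, HNRNPM and SRSF9 below 0. The sums with copies and the values without SRSF2 were chosen after seeing the data. No paired analysis was possible because the groups hold 1 library each. Depth limits SRSF12, SRRM5 and HNRNPA1L2 most.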
